A study of Mus musculus with 46 samples.

Results

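AML12 cells, a hepatocyte line from mouse liver, were compared after a depletion of the long noncoding RNA Falcor had been lifted with cells of the same line labelled as given no doxycycline. The cells carried a hairpin under doxycycline control. Its label is shLinc; it is called the Falcor hairpin here because the samples carry the tag shfalcor, which the control libraries carry too, and because Falcor was low in its doxycycline libraries. The 3 restored libraries, labelled DoxMinus, were set against the 3 untreated libraries, labelled NoDox. Described are the genes whose values averaged 3 or more over these 6 libraries, which were 10259 of the 55774 genes in the table, and the series holds 46 libraries in all. Further libraries of the same table were set beside them: the Falcor hairpin line with doxycycline (3 libraries), and a line with an inducible control hairpin, shCtrl, in the restored, doxycycline and untreated states (3 libraries each). Every library of this table came from AML12 cells carrying an inducible hairpin. The doxycycline dose, the length of treatment and withdrawal, and whether a line is 1 clone or a pool are not stated by the labels. Within the Falcor hairpin line, an effect of the past depletion, of the doxycycline itself and of differing culture between the states cannot be told apart, so the same contrast in the control hairpin line is given beside the gene groups.

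Falcor is transcribed from the neighbourhood of Foxa2, which encodes a forkhead transcription factor of endoderm and liver. The series concerns its part in nuclear speckles, the bodies of the nucleus in which splicing factors gather, and its partner ZC3H11A, a zinc finger protein of the TREX complex that carries mRNA out of the nucleus. A hairpin that is switched on by doxycycline lowers its target through RNA interference, and removal of the drug is meant to let the target recover. A contrast of recovered with untreated cells therefore asks which RNAs lie off their starting level when the target itself is back.

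The deposited values are whole numbers whose columns summed to 859568 to 870848 in the 6 libraries. The sources used here do not name their unit, and replicates varied less than counting would allow, with a median variance over mean of 0.0526 in restored and 0.0569 in untreated libraries. They were therefore treated as a normalized score of unknown sequencing depth, in which low genes move in coarse steps. Fold changes are on the log2 scale after scaling the libraries and adding 1, and a gene was called at an adjusted p below 0.05 in limma. Nothing in the labels says that the libraries came from separate cultures, so a p-value reflects the spread among libraries that may be technical repeats. Mitochondrially encoded rows held 6.23 to 6.40% of the column totals in restored libraries and 8.07 to 8.28% in untreated libraries.

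Falcor itself had risen again to values around its untreated ones. Falcor (9030622O22Rik, chr2:147944740-148040203 on the minus strand of GRCm38, a lincRNA in GENCODE M21) had values of 11, 9 and 11 in restored libraries, against 12, 9 and 10 in untreated libraries. The groups overlapped, and the log2 fold change was 0.03 with a 95% interval of −0.27 to 0.32 (adjusted p = 0.888). With doxycycline present the 3 libraries had 2, 2 and 3. At values this low the table resolves no finer difference than that interval.

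Foxa2, which lies just before Falcor's start on the same strand (chr2:148042877-148046969), ended a little above its untreated level. Its values were 74, 72 and 76 in restored libraries, against 61, 63 and 65 in untreated libraries, and the groups did not overlap. The log2 fold change was 0.25 ± 0.04 (SE, adjusted p = 4.84e-05), against 0.03 in the control hairpin line, and the difference between the lines was 0.23 (95% interval 0.11 to 0.35, adjusted p = 0.00809). Zc3h11a (chr1:133619862-133661380, minus strand) fell: its values were 20, 17 and 17 in restored libraries and 24, 26 and 25 in untreated libraries, a log2 fold change of −0.43 ± 0.07 (SE, adjusted p = 0.000113). The control hairpin line showed −0.64 for Zc3h11a, and the difference between the lines, 0.21, was not called (95% interval −0.01 to 0.42, adjusted p = 0.178). GENCODE holds 2 overlapping gene models of this name, so the table's row may take reads of both. Neither gene was called when a change of at least 1.2-fold was required.

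**Figure D1:**
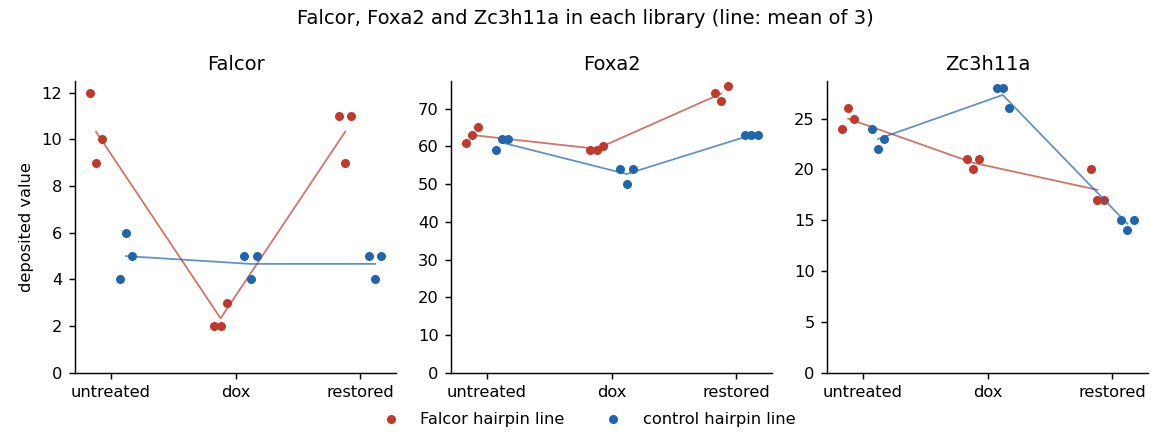
Deposited values (vertical axis, from 0) of Falcor, Foxa2 and Zc3h11a in each library, for the Falcor hairpin line (red) and the control hairpin line (blue) in the untreated state, with doxycycline (dox) and restored. Points are libraries and lines join the means of 3; Falcor of the red line falls to 2 to 3 with doxycycline and lies at 9 to 11 when restored.

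Beside Falcor, many RNAs lay off their untreated level. The counts include genes that had not been called with doxycycline, such as Dusp5 (−0.10, adjusted p = 0.112 in limma). Of the 10259 genes, 2708 were higher (26.4%) and 2515 lower (24.5%) in restored than in untreated libraries, together 5223 (50.9%), and the restored and untreated values did not overlap for 6664 genes (65.0%). The shares of 26.4% and 24.5% are the background for the list counts below that ask for no minimum fold. For list counts at 1.2-fold or more, the background is 649 higher and 734 lower of the 10259 genes. Most changes were small: the median size on the log2 scale was 0.22 over all genes and 0.35 over the called ones. At least 2-fold changes were called for 196 genes (1.91%), of which 87 were higher (0.848%) and 109 lower (1.06%). The control hairpin line, tested in the same way, had 4932 called genes (48.1%), 23.6% of all genes higher and 24.5% lower. In bulk RNA, fewer cells of a type and less RNA per cell cannot be told apart. With doxycycline against untreated in the Falcor hairpin line, 7537 genes were called (73.5%) and 1532 of them by at least 2-fold (14.9%). That comparison shares the untreated libraries, and its values are given only side by side. At the lower edge a gene can pass the filter through 1 group alone. A scaled mean below 3 in 1 or both groups was found for 574 tested genes. Of these 231 were called, against 5223 of all 10259.

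**Figure D2:**
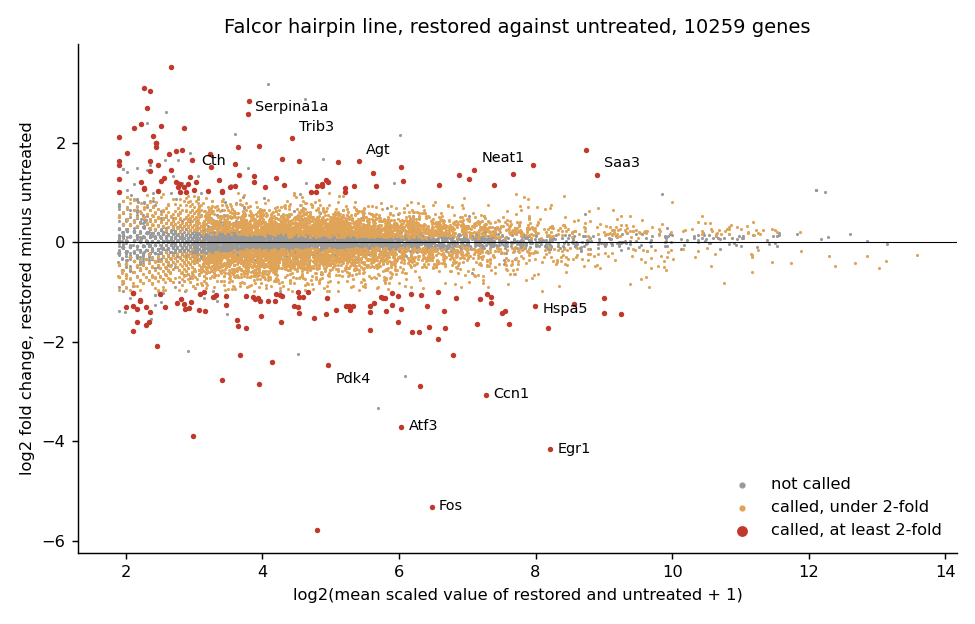
Log2 fold change, restored minus untreated, of the Falcor hairpin line (vertical axis) against the log2 mean scaled value of both groups (horizontal axis), 1 point for each of 10259 genes. Grey points were not called, yellow points were called at under 2-fold and red points at 2-fold or more; the lowest labelled points are Fos, Egr1 and Atf3, and Serpina1a and Trib3 lie at the top.

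The strongest departures were losses of immediate early genes, which growth factors, serum and stress switch on within minutes. The list holds the AP-1 and EGR transcription factors and further early genes such as Zfp36, Klf6 and Ier5. Of 22 tested members, 21 fell and none rose, with a median log2 fold change of −1.64 against 0.02 over all genes tested. Fos, an AP-1 subunit, had values of 3, 4 and 4 in restored libraries, against 189, 189 and 198 in untreated libraries. Its log2 fold change was −5.32 ± 0.14 (SE, adjusted p = 1.45e-14). Fosb, its close relative, was listed at 0 in all restored libraries, against 57, 59 and 63 in untreated libraries. Every restored value of both genes lay far below every untreated one.

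Egr1, a zinc finger factor, had 34, 31 and 35 in restored libraries and 617, 622 and 632 in untreated libraries, a log2 fold change of −4.16 (adjusted p = 1e-20). Egr2 was listed at 0 in restored libraries, against 15, 15 and 16 in untreated libraries. Atf3, a stress-induced bZIP factor, had 9 in each restored library, against 130, 131 and 140 in untreated libraries (−3.71). These genes were already low with doxycycline: Fos then had 13, 14 and 12, Egr1 161, 158 and 160, and Atf3 15, 15 and 14. The restored values, in libraries where Falcor was back, were the lowest of the 3 states in this line. Other members that fell were Zfp36 (−2.90), which destabilizes inflammatory mRNAs, the Krüppel-like factors Klf6 (−2.26) and Klf2 (−2.27), and Jun (−1.80). Ier5, with 52, 50 and 51 in restored and 53, 54 and 53 in untreated libraries, was the member that was not called.

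The control hairpin line lost these RNAs too. There 20 of the 22 members fell, with a median of −1.19, and Fos had 1, 2 and 2 in restored libraries against 85, 89 and 86 in untreated libraries. With doxycycline that line had 4, 3 and 4 for Fos, 57, 56 and 59 for Egr1 and 8, 9 and 10 for Atf3. Falcor there had 5, 4 and 5 with doxycycline, against 4, 6 and 5 untreated. Atf3 had 25, 26 and 23 in restored libraries of that line, above its doxycycline values. The differences between the lines for Fos (−0.23, adjusted p = 0.456) and Egr1 (0, adjusted p = 0.999) were not called, and the 95% interval for Egr1 was −0.11 to 0.11. For 13 members the difference was called in the negative direction, against 8.18% of all genes, and for 1 in the positive. Atf3 differed by −1.22 (95% interval −1.43 to −1.02) and Klf6 by −0.91, so both fell further in the Falcor hairpin line. A promoter is shown for Egr2, because its RNA was listed at 0 after recovery and its start carries the serum response element, the CArG box (in capitals), to which serum response factor is known to bind. RefSeq windows on GRCm38, the 250 bases before the start, were searched on both strands:
Egr2, chr10:67537722-67537821, plus strand: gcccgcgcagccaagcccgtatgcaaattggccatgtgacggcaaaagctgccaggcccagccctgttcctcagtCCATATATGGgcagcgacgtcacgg
Of 14 members with a window, Egr2 alone held a CArG box (7.14%), against 1.08% of 7062 tested genes with a window. The cAMP response element TGACGTCA was held by 1 of the 14, against 2.97% of all windows. Elements farther from the start, with other letters, or in members without a window would not have been found.

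Genes that answer MAP kinase and YAP signalling followed in part. Of 17 members of the MAP kinase feedback list, 10 fell and 6 rose. Dusp5, a phosphatase that turns off ERK, had 3 in each restored library, against 29, 28 and 30 in untreated libraries (log2 fold change −2.85, adjusted p = 4.55e-16), although it had stood at 24, 22 and 23 with doxycycline. Hbegf, an EGF receptor ligand, changed by −1.76, the ERK phosphatase Dusp6 by −1.35 and Phlda1 by −1.41. Etv4, an ETS factor, went the other way, with 9, 10 and 8 in restored libraries and 2, 3 and 3 in untreated libraries (1.45). Dusp5 fell less in the control hairpin line (−1.45), with a difference of −1.40 (95% interval −1.57 to −1.23, adjusted p = 2.43e-09). Of the 17 members 8 fell and 5 rose there, with a median of −0.11, against −0.51 in the Falcor hairpin line.

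Of 19 YAP and TGF-beta targets, 13 fell and 1 rose, with a median of −0.30, and 7 fell when at least 1.2-fold was required. Ccn1, a secreted matricellular protein, had 35, 34 and 35 in restored libraries, against 301, 308 and 308 in untreated libraries, a log2 fold change of −3.07 ± 0.03 (SE, adjusted p = 5.36e-20). Ccn2, its relative, stood at 145, 144 and 149 in restored libraries, against 486, 502 and 497 in untreated libraries (−1.73), whereas with doxycycline it had 914, 905 and 924. Ccn2 thus lay below its starting level after having been above it. Ccn2 was nearly level in the control hairpin line (−0.15), and the difference between the lines was −1.58 (95% interval −1.68 to −1.47, adjusted p = 1.25e-12). Ccn1 fell there too (−1.62), with a difference of −1.46 (95% interval −1.55 to −1.36). Of the 19 targets 8 fell and 6 rose there, with a median of −0.15.

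Chaperones of the endoplasmic reticulum, which fold secreted and membrane proteins, were the second group to stay low. Of 20 members, 17 fell and none rose, with a median log2 fold change of −0.79. Hspa5, the chaperone BiP, had 164, 159 and 158 in restored libraries, against 387, 413 and 396 in untreated libraries (−1.28 ± 0.03 SE, adjusted p = 5.47e-15). Hsp90b1, the chaperone GRP94, had 108, 103 and 108 in restored libraries, against 284, 294 and 296 in untreated libraries (−1.42). The calcium-binding lectins Calr (−0.85) and Canx (−0.81) and the disulfide isomerase Pdia4 (−0.83) fell with them. Xbp1, Herpud1 and Crebrf were not called.

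The chaperones fell in the control hairpin line as well, where 17 of 20 members were lower with a median of −0.72. The difference between the lines was called for 2 members, both positive, against 11.0% of all genes. For Hspa5 it was 0.01 with a 95% interval of −0.08 to 0.10 (adjusted p = 0.906). In the Falcor hairpin line Hspa5 had stood at 215, 210 and 220 with doxycycline, between the restored and the untreated values. Cytosolic heat shock proteins fell less: 12 of 17 fell and 1 rose, with a median of −0.27 and Hsph1 at −0.91, and 6 fell when at least 1.2-fold was required. The member that rose was Hspb1 (0.33). Of the 17, 14 fell in the control hairpin line (median −0.35).

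The chaperone promoters are shown because they share a known sequence, the endoplasmic reticulum stress response element, to which NF-Y and ATF6 are known to bind. It holds CCAAT and CCACG with 9 open letters between them, and is in capitals, on either strand, within 100 bases of the RefSeq window on GRCm38:
Hspa5, chr2:34771959-34772058, plus strand: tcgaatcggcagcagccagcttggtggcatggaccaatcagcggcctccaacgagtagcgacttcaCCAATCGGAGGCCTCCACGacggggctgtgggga
Hsp90b1, chr10:86705518-86705617, minus strand: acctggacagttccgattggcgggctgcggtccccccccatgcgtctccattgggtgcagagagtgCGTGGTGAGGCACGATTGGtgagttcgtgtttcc
Calr, chr8:84847060-84847159, minus strand: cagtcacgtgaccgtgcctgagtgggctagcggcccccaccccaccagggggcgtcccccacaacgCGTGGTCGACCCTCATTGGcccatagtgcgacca
Of 16 chaperone genes with a window, 7 held the element (43.8%), against 12 of 7062 tested genes with a window (0.17%). The list was made of known unfolded protein genes, so the share itself is a property of the list. All 7 members with the element fell (Hspa5, Hsp90b1, Calr, Canx, Pdia6, Creld2 and Dnajc3), with log2 fold changes of −0.80 to −1.42. Of the 5 tested genes with the element outside the list, 2 fell and 2 rose: Hnrnpa3 changed by −0.40, Syvn1 by −0.17, Pan2 by 0.48 and Zfp57 by 0.62. These 5 genes were looked at after their values were known.

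Genes switched on by ATF4, the transcription factor of amino acid shortage and the integrated stress response, stayed high. Of 26 members, 23 rose and 1 fell, with a median log2 fold change of 0.90. Trib3, a pseudokinase that inhibits Akt, had 36, 37 and 38 in restored libraries, against 8, 7 and 9 in untreated libraries (2.10 ± 0.07 SE, adjusted p = 1.07e-12). Cth, which makes cysteine from cystathionine, had 20, 21 and 20 in restored libraries and 5, 5 and 4 in untreated libraries (1.92). Both sets of values stood clear of each other.

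Slc7a5, the large neutral amino acid transporter, had 106, 102 and 105 in restored libraries, against 37, 37 and 35 in untreated libraries (1.52). The factor Atf5 changed by 1.38, the mitochondrial serine hydroxymethyltransferase Shmt2 by 1.35 and asparagine synthetase, Asns, by 1.15. With doxycycline Slc7a5 had stood at 123, 120 and 124 and Cth at 27, 24 and 29, above the restored values, whereas Trib3 had stood at 21, 22 and 22, below them. The member that fell was Gdf15 (−0.36), and Vldlr and Cebpb were not called. Charging enzymes of transfer RNA moved less: 13 of 18 aminoacyl tRNA synthetases rose and 2 fell, with a median of 0.28, alanyl tRNA synthetase (Aars) at 0.74, and 8 rose when at least 1.2-fold was required. Of the synthetases 11 rose and 4 fell in the control hairpin line (median 0.20).

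In the control hairpin line 21 of 26 ATF4 targets rose, with a median of 0.71. The lines differed in their starting levels: Trib3 had 103, 103 and 101 in restored and 39, 37 and 38 in untreated libraries of the control hairpin line. The change was larger in the Falcor hairpin line for 15 members and smaller for 3, against 11.0% and 8.18% of all genes. For Trib3 the difference was 0.71 (95% interval 0.49 to 0.93, adjusted p = 0.000151) and for Cth 1.02 (95% interval 0.79 to 1.26, adjusted p = 5.7e-06). Promoter stretches of Chac1, a glutathione-degrading enzyme, and Asns are given because they hold the letters TGATGNAA of the C/EBP and ATF response element, in capitals on either strand (RefSeq, GRCm38):
Chac1, chr2:119350992-119351091, plus strand: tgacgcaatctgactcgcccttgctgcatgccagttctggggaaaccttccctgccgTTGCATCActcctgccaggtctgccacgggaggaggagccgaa
Asns, chr6:7693210-7693309, minus strand: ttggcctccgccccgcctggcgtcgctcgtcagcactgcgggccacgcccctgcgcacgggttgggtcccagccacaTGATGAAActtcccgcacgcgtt
Chac1 had 33, 30 and 31 in restored libraries, against 10, 10 and 8 in untreated libraries (log2 fold change 1.67). The letters were in 3 of 21 member windows (14.3%, Chac1, Asns and Pycr1), against 1.64% of all windows.

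**Figure D3:**
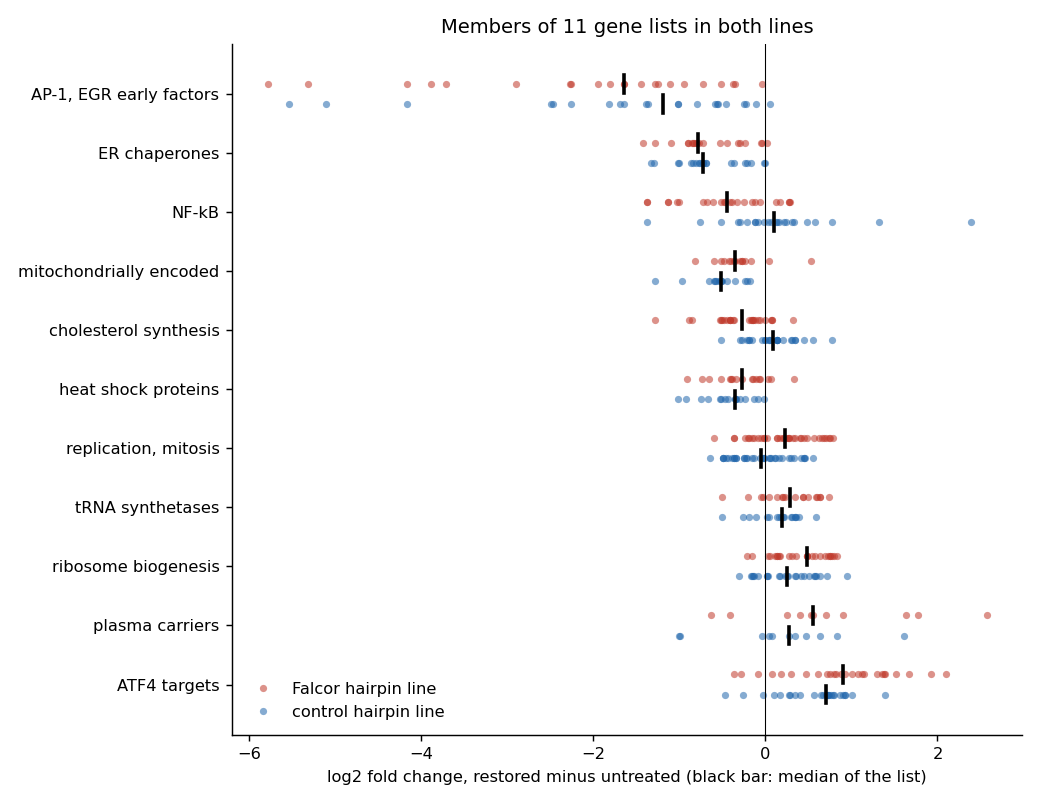
Log2 fold change, restored minus untreated (horizontal axis), of the tested members of 11 gene lists, with the Falcor hairpin line in red above and the control hairpin line in blue below. Points are genes and black bars are list medians; the early factors lie farthest left in both lines (medians −1.64 and −1.19), and the NF-kB and cholesterol medians are negative in the Falcor hairpin line and positive in the control hairpin line.

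Among the RNAs of nuclear bodies, 2 long noncoding RNAs overshot. Neat1, the scaffold of paraspeckles, had 221, 220 and 214 in restored libraries, against 77, 84 and 80 in untreated libraries, and had stood at 23, 22 and 25 with doxycycline. Its log2 fold change was 1.46 ± 0.05 (SE, adjusted p = 4.22e-13). Malat1, the abundant RNA of nuclear speckles, had 215, 180 and 204 in restored libraries and 82, 91 and 78 in untreated libraries (1.27 ± 0.09 SE, adjusted p = 6.58e-09). Neat1 rose in the control hairpin line by 1.47 on the log2 scale (difference −0.02, 95% interval −0.16 to 0.13), and Malat1 rose less (0.82, difference 0.45, 95% interval 0.18 to 0.72, adjusted p = 0.0192).

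The protein-coding members of the speckle list were divided. Of 25 members, which include both RNAs, 10 rose and 7 fell, with a median of 0.12. U2af2, which reads the polypyrimidine tract at the 3′ splice site, had 249, 254 and 253 in restored libraries and 160, 167 and 170 in untreated libraries (0.63). Srsf5, an SR splicing factor, had 151, 145 and 152 in restored libraries, against 269, 278 and 275 in untreated libraries (−0.84), and fell in the control hairpin line too (−0.78, difference −0.07, adjusted p = 0.565). Requiring at least 1.2-fold left 4 higher and 1 lower. Of 18 genes of TREX and the nuclear pore, 10 rose and Zc3h11a was the 1 that fell, with Nup62, a pore protein, at 0.53 and the helicase Ddx39a at 0.48, and 3 rose under the 1.2-fold requirement. Control hairpin medians were 0.04 for the speckle list and 0.16 for TREX and the pore.

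Ribosome-making genes stayed high. Of 25 ribosome biogenesis genes, 18 rose and 2 fell, with a median of 0.48 and 13 higher at 1.2-fold or more. Nop56, a core protein of box C/D ribonucleoproteins, had 130, 118 and 131 in restored libraries, against 70, 73 and 78 in untreated libraries (0.80), far below the 289, 286 and 286 seen with doxycycline. The ribosomal proteins themselves moved little: 19 of 41 rose and 2 fell, with a median of 0.16, and none was called under the 1.2-fold requirement. Medians in the control hairpin line were 0.25 for ribosome biogenesis and 0.12 for ribosomal proteins, with no called difference for any of the 41 ribosomal proteins at the adjusted p threshold.

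Secreted hepatocyte proteins ended above their starting level. Of 11 tested plasma carrier proteins and apolipoproteins, 9 rose and 1 fell, with a median of 0.55. Serpina1a, an alpha-1-antitrypsin, had 25, 25 and 24 in restored libraries, against 3, 3 and 4 in untreated libraries (2.57 ± 0.13 SE, adjusted p = 8.12e-11). Reads of Serpina1a and Serpina1b, which rose by 2.00, may be split between near-identical paralogs. Agt, angiotensinogen, had 68, 70 and 69 in restored libraries and 22, 21 and 23 in untreated libraries (1.63), and had stood at 4, 4 and 3 with doxycycline. Thus it passed its starting level on recovery.

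Gc, the vitamin D binding protein, had 350, 346 and 358 in restored libraries, against 215, 213 and 225 in untreated libraries (0.71). Gc fell in the control hairpin line, with 183, 175 and 192 in restored and 351, 372 and 361 in untreated libraries (−1.0), so the lines moved in opposite directions and differed by 1.71 (95% interval 1.59 to 1.83, adjusted p = 3.39e-12). The difference between the lines was positive for 7 of the 11 members and negative for none, against 11.0% and 8.18% of all genes. In the control hairpin line 5 of the 11 members rose and 2 fell, with a median of 0.27. Serpina1a (0.83) and Serpina1b (0.99) rose there too, each by less than in the Falcor hairpin line. Agt (0.04) was level in the control hairpin line and transferrin, Trf, nearly so (0.08, against 0.53 in the Falcor hairpin line). In the Falcor hairpin line albumin, looked at after its values were known, was the 1 member called lower, with 37, 36 and 34 in restored and 49, 49 and 48 in untreated libraries. The 1 member that was not called had the lowest log2 fold change of the list (−0.63), without overlap.

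The acute phase list, proteins that the liver secretes on interleukin 6 signalling, was mixed: 5 of 13 rose, 2 fell and the median was 0.10. Hp, haptoglobin, had 140, 144 and 144 in restored libraries, against 67, 68 and 61 in untreated libraries (1.14, adjusted p = 2.43e-07), after values of 2, 3 and 3 with doxycycline. With the control hairpin it moved the other way (−1.10), a difference of 2.24 (95% interval 1.92 to 2.57, adjusted p = 2.71e-08). Saa3, a serum amyloid protein, had 761, 741 and 737 in restored libraries and 288, 310 and 287 in untreated libraries (1.36). Lcn2, lipocalin 2, had 3146, 3203 and 3187 in restored libraries, against 4228, 4347 and 4457 in untreated libraries (−0.42), with 81, 78 and 81 under doxycycline. It rose in the control hairpin line (0.74), and the difference was −1.16 (adjusted p = 1.08e-09). Of the 13 members 5 rose and 4 fell there, with a median of 0.09.

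Of 16 hepatocyte transcription factors, 4 rose and 5 fell, against 26.4% and 24.5% of all genes. The median was 0.04, and the changes were small. With the control hairpin 6 rose and 2 fell (median 0.02). Foxa1, a forkhead relative of Foxa2, had 16 in each restored library, against 12, 10 and 11 in untreated libraries (0.53), and fell in the control hairpin line (−0.50, difference 1.03, 95% interval 0.74 to 1.32). Gata6 fell by 0.48 on the log2 scale. Under the 1.2-fold requirement none of the 16 rose and 1 fell.

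Inflammatory genes under NF-kB stayed low in the Falcor hairpin line. Of 24 members, 17 fell and 3 rose, with a median of −0.44, and 11 fell at 1.2-fold or more. Cxcl1, a neutrophil chemokine, had 355, 351 and 337 in restored libraries, against 756, 793 and 783 in untreated libraries (−1.13 ± 0.06 SE, adjusted p = 2.91e-10), after 68, 71 and 73 with doxycycline. Recovery was thus partial. Cxcl2 had 20, 19 and 19 in restored libraries and 52, 53 and 53 in untreated libraries (−1.37), and the ubiquitin-editing inhibitor Tnfaip3 (A20) had 36, 35 and 37 in restored and 80, 82 and 83 in untreated libraries (−1.13). The adhesion molecule Vcam1 changed by −1.0. Csf2, the growth factor GM-CSF, had 5 in each restored library, against 31, 31 and 33 in untreated libraries (−2.40).

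The control hairpin line moved otherwise. There 11 of 24 members rose and 6 fell, with a median of 0.10, and Cxcl1 had 479, 465 and 464 in restored libraries against 277, 279 and 258 in untreated libraries (0.77). The difference between the lines was called for 14 members, all negative, against 8.18% of all genes. It was −1.90 for Cxcl1 (95% interval −2.09 to −1.71, adjusted p = 2.21e-10), −1.26 for Tnfaip3 (95% interval −1.41 to −1.12) and −2.79 for Csf2 (95% interval −3.36 to −2.21, adjusted p = 1.63e-06). Among 15 interferon-induced and MHC class I genes, 10 fell and 2 rose, with Isg20, an RNA exonuclease, at −1.27 and B2m, the MHC light chain, at −0.75, and 4 fell at 1.2-fold or more. Their control hairpin line median was −0.21, against −0.35 in the Falcor hairpin line, and a difference was called for 1 member in each direction.

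Cholesterol synthesis genes, the targets of SREBP2, were lower after recovery. Of 26 members, 17 fell and 1 rose, with a median of −0.28, and 10 fell at 1.2-fold or more. Idi1, an isomerase of the isoprenoid steps, had 31, 27 and 30 in restored libraries, against 75, 72 and 75 in untreated libraries (−1.28 ± 0.05 SE, adjusted p = 1.03e-12). Hmgcs1, the synthase that feeds the pathway, had 34, 31 and 34 in restored libraries and 65, 61 and 63 in untreated libraries (−0.89), and Msmo1 changed by −0.85.

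Here the lines differed for most members: the difference was called for 21 of 26, all negative, against 8.18% of all genes. With the control hairpin the median was 0.09, with 10 members higher and 7 lower, and Hmgcs1 at −0.21. For Hmgcs1 the difference was −0.68 (95% interval −0.83 to −0.52, adjusted p = 4.45e-06) and for Idi1 −0.77 (95% interval −0.90 to −0.63, adjusted p = 2.91e-07). The promoter of Hmgcs1 is shown with the letters TCACNCCAC of the sterol regulatory element in capitals, the 1 window of 15 among the members that held them (6.67%, against 0.92% of all windows):
Hmgcs1, chr13:119690138-119690237, plus strand: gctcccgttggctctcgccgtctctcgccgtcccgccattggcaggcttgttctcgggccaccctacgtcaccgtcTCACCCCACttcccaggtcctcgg

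Of 25 fatty acid oxidation genes under PPAR-alpha, 15 fell and 1 rose, with a median of −0.19 and 6 lower at 1.2-fold or more. With the control hairpin 11 fell and 4 rose (median −0.06). The difference between the lines was positive for 4 members and negative for 5, against 11.0% and 8.18% of all genes. Its median was −0.03. Pdk4, the kinase that spares glucose by inhibiting pyruvate dehydrogenase, had 9, 10 and 9 in restored libraries, against 56, 59 and 58 in untreated libraries (−2.47 ± 0.13 SE, adjusted p = 2.54e-10). With doxycycline Pdk4 stood at 2 in every library, so its restored values lay between those of the other states. Pdk4 fell in the control hairpin line too (−1.58), and the difference was −0.89 (95% interval −1.30 to −0.49, adjusted p = 0.00334).

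Of 15 mitochondrially encoded genes, 12 fell and 1 rose, with a median of −0.35 and 4 lower at 1.2-fold or more. mt-Nd2, a subunit of complex I, had 1969, 1978 and 2025 in restored libraries, against 3067, 2994 and 3152 in untreated libraries (−0.60). The small ribosomal RNA of the mitochondrion, mt-Rnr1, was the gene that rose (0.53). With the control hairpin the median was lower (−0.52), and 5 members differed between the lines, all positive, against 11.0% of all genes. Nuclear-encoded respiratory chain genes were close to level in the Falcor hairpin line, with 6 of 46 higher, 12 lower and a median of −0.02, whereas in the control hairpin line 27 of 46 fell (median −0.21).

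DNA replication and mitosis genes stayed above their starting level. Of 36 members, 21 rose and 6 fell, with a median of 0.23 and 10 higher at 1.2-fold or more. The replicative helicase subunit Mcm5 had 122, 123 and 120 in restored libraries, against 73, 73 and 75 in untreated libraries (0.74 ± 0.03 SE, adjusted p = 6.33e-12), after 184, 187 and 192 with doxycycline. Mcm7 (0.75), Mcm3 (0.68), Mcm2 (0.70) and the licensing factor Cdt1 (0.66) rose with it. With the control hairpin 9 members rose and 16 fell (median −0.04), and 24 of the 36 had a called positive difference, against 11.0% of all genes, with 1 negative. For Mcm5 the difference was 0.29 (95% interval 0.20 to 0.39, adjusted p = 0.000123). Of 23 p53 targets and cell cycle inhibitors, 12 fell, among them Btg2 (−1.95) and Ccng1 (−0.93), and 8 rose, among them Trp53 (0.75). With the control hairpin 8 fell and 8 rose. The difference was positive for 2 members and negative for 9, against 11.0% and 8.18% of all genes.

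**Figure D4:**
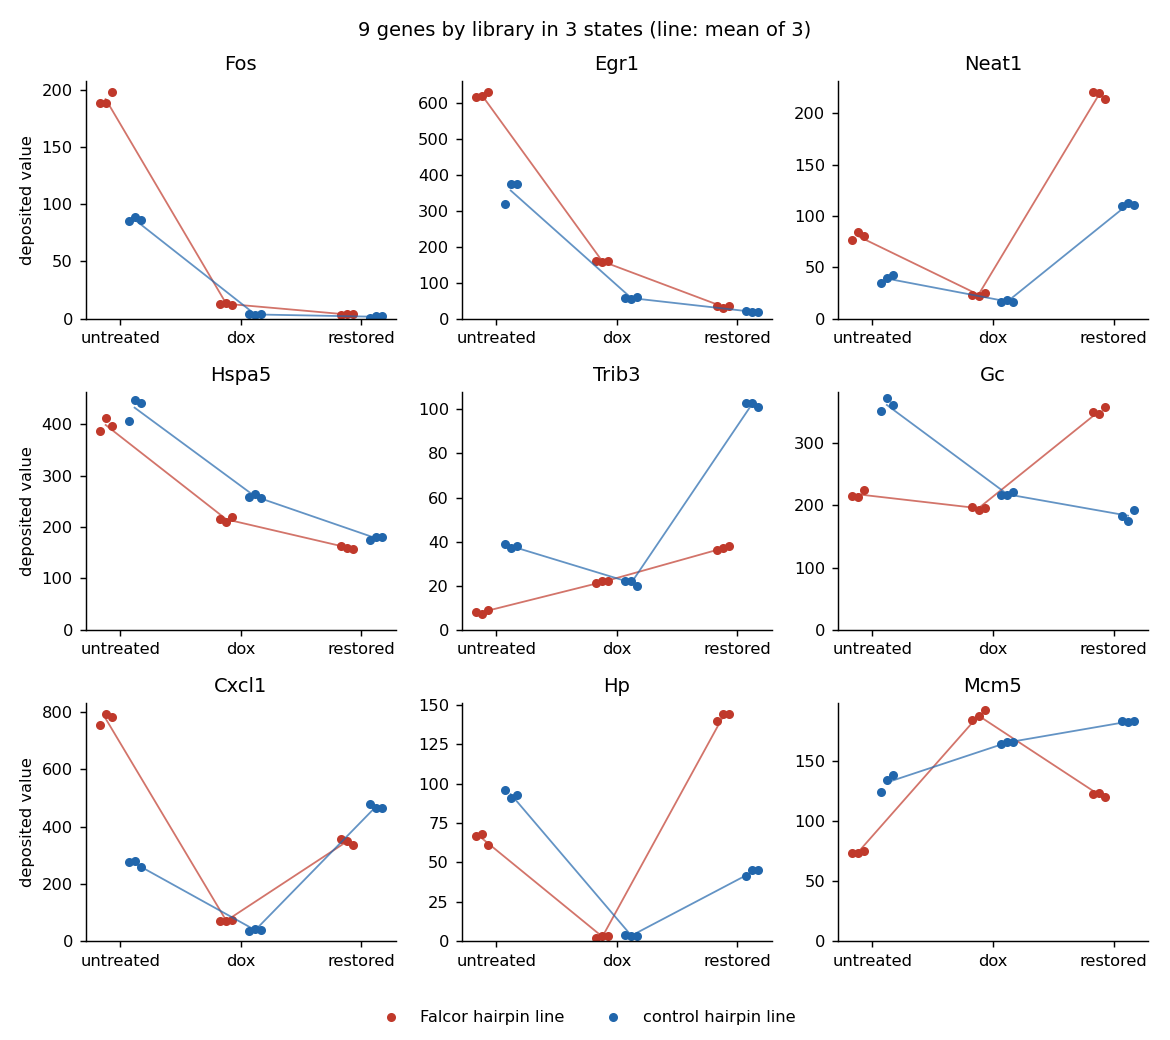
Deposited values (vertical axes, each from 0) of 9 genes in each library of the Falcor hairpin line (red) and the control hairpin line (blue), untreated, with doxycycline (dox) and restored, with lines joining the means of 3. Fos, Egr1 and Hspa5 are lowest in the restored state of both lines, Neat1 is highest there, and Gc, Cxcl1 and Hp lie on opposite sides of their untreated values in the 2 lines.

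Single genes outside these lists also stood out. Ranbp3l, a nuclear exporter of SMAD proteins, had 8, 9 and 8 in restored libraries and was listed at 0 in untreated libraries. Nts, the precursor of neurotensin, had 9, 10 and 9 in restored libraries, against 1 in each untreated library (2.33, adjusted p = 4.17e-06). C4b, complement component 4, had 12 in each restored library, against 2, 1 and 2 in untreated libraries (2.29, adjusted p = 1.05e-06). All 3 genes lay near the bottom of the measured range before doxycycline. Aqp1, a water channel, had 24, 26 and 27 in restored libraries, against 6 in each untreated library (1.94). Slco4a1, an organic anion transporter, had 8, 8 and 9 in restored libraries and 1, 1 and 2 in untreated libraries (2.00), and Slc17a1, a phosphate transporter, had 12, 10 and 11 in restored libraries and 2, 3 and 2 in untreated libraries (1.85). At such low starting values the fold depends on the added 1.

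Small RNAs were erratic. Snora57, a small nucleolar RNA, had 1131, 534 and 548 in restored libraries, against 149, 218 and 220 in untreated libraries (1.86 ± 0.34 SE, adjusted p = 0.000462), and 1 restored library stood far above the others. Mir3060 had 3, 13 and 9 in restored libraries and 0, 2 and 1 in untreated libraries (2.14, adjusted p = 0.0227), a call that was lost without restored replicate 2 (1.75) or replicate 3 (2.01) or untreated replicate 1 (1.74).

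Some large responses to doxycycline were mostly or wholly gone after recovery. The description takes genes whose restored minus untreated 95% interval lay within −0.3 to 0.3. Pde4c, a cAMP phosphodiesterase, had 29, 30 and 29 in restored libraries, against 29, 31 and 30 in untreated libraries, after 2, 3 and 2 with doxycycline. Emp1, an epithelial membrane protein, had 76, 72 and 74 in restored libraries and 72, 73 and 72 in untreated libraries, after 288, 291 and 294. Lbp, which binds bacterial lipopolysaccharide, had 648, 664 and 664 in restored libraries, against 610, 629 and 643 in untreated libraries (0.10, adjusted p = 0.0253), after 124, 121 and 121. Lbp was thus still called higher, without overlap. In each of these genes the restored and untreated values lay close together and far from the doxycycline values.

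Odc1, the first enzyme of polyamine synthesis, had 101, 102 and 106 in restored libraries, against 110, 117 and 118 in untreated libraries (−0.13, adjusted p = 0.00149), after 354, 357 and 356 with doxycycline. Odc1 was still called lower, without overlap. Dkc1, the pseudouridine synthase of the telomerase complex, had 11, 11 and 13 in restored libraries and 10, 12 and 10 in untreated libraries, after 35, 33 and 36. Both had been higher under doxycycline than in either other state. Cxcl5, a chemokine, had 514, 480 and 510 in restored libraries, against 547, 560 and 560 in untreated libraries, after 17, 19 and 19. In the Falcor hairpin line it was thus near its starting level, and it was not in the control hairpin line. In the control hairpin line restored libraries had 342, 338 and 315 against 65, 63 and 57 in untreated libraries, and the difference was −2.51 (95% interval −2.74 to −2.29, adjusted p = 7.15e-11).

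Over all genes, the 2 lines departed from their untreated state in related ways. The restored minus untreated changes, which share no library between the lines, had r = 0.62 and rho = 0.61 across the 10259 genes, a description across genes measured in 1 table. Of the 2708 genes higher in the Falcor hairpin line, 58.8% were also higher in the control hairpin line, and of those higher in the control hairpin line 65.7% were higher in the Falcor hairpin line. Of the lower genes the shares were 62.6% and 62.7%. Opposite calls were found for 4.69% of the higher and 4.73% of the lower genes. The test of the difference called 1124 genes with a more positive change in the Falcor hairpin line (11.0%) and 839 with a more negative one (8.18%), together 1963 (19.1%).

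Among the 87 genes at least 2-fold higher, 55 were also higher in the control hairpin line, 28 were not called there and 4 were lower. Among the 109 at least 2-fold lower, 81 were also lower, 21 not called and 7 higher. The change was larger in size in the Falcor hairpin line, by the test of the difference, for 44 of the 87 and 73 of the 109. Over all genes the difference was called positive for 11.0% and negative for 8.18%. However, the 87 and 109 genes were chosen by their change in the Falcor hairpin line, and the test used the same libraries. The counts were thus bound to lean that way, and no conclusion is drawn from them. The widest positive differences included Slc17a1 (2.48), Hp (2.24), the matrix protein Spp1 (1.92) and the adhesion receptor Adgrg1 (1.89). Spp1 had 299, 304 and 313 in restored and 208, 220 and 216 in untreated libraries of the Falcor hairpin line, and 107, 110 and 113 in restored and 280, 289 and 286 in untreated libraries of the control hairpin line. The widest negative ones included Csf2, Cxcl5 and the aldo-keto reductase Akr1b7 (−2.26), which had 95, 100 and 100 in restored and 210, 229 and 227 in untreated libraries of the Falcor hairpin line. Akr1b7 in the control hairpin line had 23, 21 and 26 in restored and 10 in each untreated library. The untreated control hairpin libraries varied more than the other groups, with a median variance over mean of 0.195, and replicate 1 of that group stood apart in its scale factor (0.882, against 1.01 at the highest). Without that library the differences numbered 1397 and 1167.

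**Figure D5:**
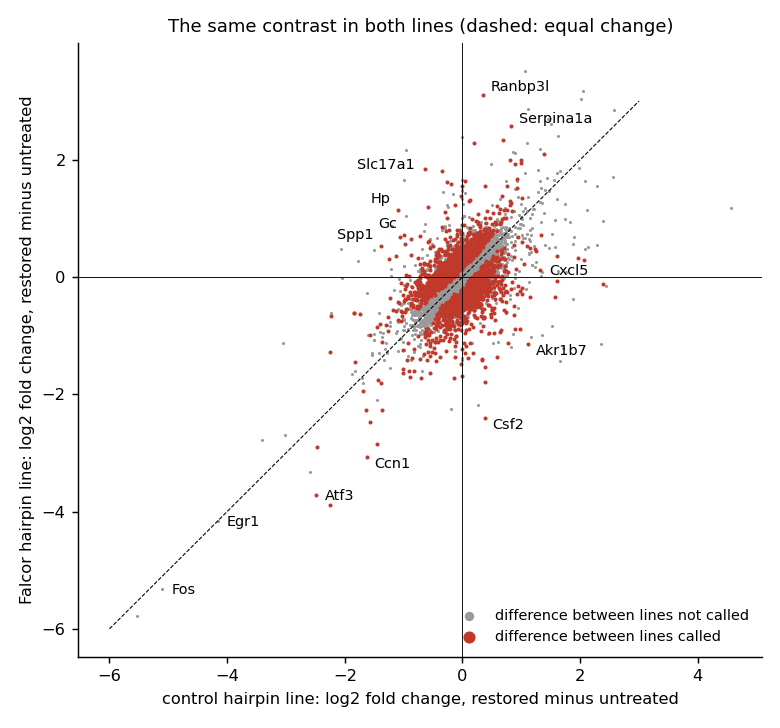
Log2 fold change, restored minus untreated, of each gene in the Falcor hairpin line (vertical axis) and in the control hairpin line (horizontal axis), with equal change dashed. Red points are genes whose change differed between the lines (adjusted p below 0.05); Fos and Egr1 lie on the dashed line, whereas Csf2, Akr1b7 and Cxcl5 lie to its right and Serpina1a, Slc17a1 and Hp to its left.

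The libraries carried hepatocyte and biliary markers. Of 14 hepatocyte markers, the summed value was 2405 to 2452 in restored and 1920 to 2016 in untreated libraries, and 6 defining markers (Apoa2, Apoc3, Fgb, Cyp2e1, Cps1 and Ahsg) were listed at 0 in every library of both groups. Of 8 cholangiocyte markers, the sum was 1435 to 1450 in restored and 1571 to 1619 in untreated libraries, most of it Krt19, with Epcam and Cftr at 0. All 8 endothelial and all 9 stellate or fibroblast markers were listed at 0 in both groups. The 8 macrophage markers summed to 342 to 349 in restored and 370 to 382 in untreated libraries, nearly all Cd14, with Adgre1, Clec4f, Ptprc, Lyz2 and Marco at 0. Hepatocyte markers thus summed higher and biliary markers lower in restored libraries, and their part in the results was not tested.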

How the data were processed

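RNA sequencing of AML12 cells was analysed from 18 libraries in 6 groups of 3, of which the 3 restored and 3 untreated libraries of the Falcor hairpin line form the comparison. Per the labels' protocols, ribosomal RNA was removed and strand was kept. Kallisto, DESeq2 and mm10 appear in the submitters' processing notes without versions or roles. Genes are named as in the deposited table, which the authors made in a unit that no source states. Its deposited values were treated as a score, since they are whole numbers with near-equal column totals and less spread than counts. Sequencing depth is therefore unknown, and no counting interval is given.

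Values were divided by scale factors from a trimmed mean of M-values (30% trim of M, 5% of A), and log2(value + 1) was fitted in limma 3.58.1 (R 4.3.3) over all 18 libraries with a mean-variance trend and robust estimation. Genes with a mean of at least 3 over the 6 libraries were tested, with Benjamini-Hochberg adjustment over all 10259. The difference between the lines was tested in the same fit. Alternatives covered scaling, pseudocount, filter, fit, a 1.2-fold minimum in limma's treat, transcript length, replicate block and each library left out. The fit was checked on simulated data.

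The members, gene lists and rules were chosen with earlier results of these data known. Named genes are Falcor, Foxa2 and Zc3h11a, then, among called genes averaging 5 or more in their higher group, with no overlap and an established symbol, the 12 largest increases and 12 largest decreases. Without the overlap condition, they are also the 6 widest called differences between the lines in each direction, up to 5 called members of each list with the smallest p, and the 5 largest doxycycline responses in each direction whose restored minus untreated interval lay within −0.3 to 0.3. Chac1, albumin and the few members named because they were not called or moved against their list were chosen after their values were seen. Promoter windows come from RefSeq on GRCm38, 1 per gene, within 200 bases of a GENCODE M21 principal start, and 250 bases before the start were searched. Other tables of the series were not used here. A few genes that the rules name are not reported here.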

Additional observations from a re-analysis of the deposited data

Results flagged for a closer look

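For 28 genes named by the rules above, the restored minus untreated change differed between the Falcor hairpin line and the control hairpin line by the test of the difference itself (limma, adjusted p below 0.05). Some of these genes were named because their called differences were the widest, so their calls follow from the naming rule. Most others were named for the size of their change in the Falcor hairpin line, in libraries that the test also used. Of all 10259 genes tested, 19.1% had a called difference. The number 28 was thus bound to be high, and no conclusion is drawn from it. All differences are log2 values, Falcor hairpin line minus control hairpin line. The more positive changes in the Falcor hairpin line were those of Ranbp3l (2.76), Slc17a1 (2.48), Hp (2.24), C4b (2.1), Spp1 (1.92), Adgrg1 (1.89), Serpina1a (1.74), Nts (1.64), Slco4a1 (1.18), Cth (1.02), Serpina1b (1.01), Aqp1 (0.95), Trib3 (0.71) and Foxa2 (0.23). The more negative ones were those of Csf2 (−2.79), Cxcl5 (−2.51), Akr1b7 (−2.26), Lrrc26 (−2.18), Csf3 (−1.95), Snord43 (−1.91), Egr2 (−1.63), Ccn1 (−1.46), Dusp5 (−1.4), Atf3 (−1.22), Klf6 (−0.91), Pdk4 (−0.89), Klf2 (−0.64) and Zfp36 (−0.43).

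The changes ran in opposite directions, each called in its own line, for Slc17a1 (1.85 and −0.63), Hp (1.14 and −1.1), Spp1 (0.53 and −1.39), Adgrg1 (1.62 and −0.26), Akr1b7 (−1.14 and 1.12) and Csf3 (−1.37 and 0.58), with the Falcor hairpin line given before the control hairpin line. Where a group is listed at 0, as Ranbp3l is in untreated and Egr2 in restored libraries of the Falcor hairpin line, the fitted value depends on the added 1. Csf3, a granulocyte growth factor, had 4 in each restored library and 12, 13 and 12 in untreated libraries of the Falcor hairpin line. Lrrc26 had 1 in each restored library and 7, 5 and 7 in untreated libraries. Snord43, a small nucleolar RNA, had 6, 5 and 9 in restored and 9, 14 and 5 in untreated libraries, which overlap.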

How the results depend on the processing

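Scaling, pseudocount, robust estimation, the fit to the compared groups only and removal of the length trend left the counts of genes within 1.5 times. Of 860 single gene values compared, 851 kept direction and call, and of 779 list medians 765 moved less than the spread. A minimum of 1.2-fold lowered the counts to 649 higher, 734 lower, 131 more positive and 161 more negative in the Falcor hairpin line, and ended the calls of Foxa2, Zc3h11a, Mir3060 and Snord43, because it asks for a larger change. The 87 genes 2-fold higher became 149 with a mean of at least 1 and 44 with a mean of at least 10, since these filters test other genes. Falcor's change of 0.03 reversed to −0.01 without restored replicate 1, −0.01 without restored replicate 3 and −0.07 without untreated replicate 2 (range −0.07 to 0.14), never near a call. Leaving out 1 library at a time gave 2390 to 2482 higher, 2213 to 2244 lower, 76 to 90 higher by 2-fold, 110 to 120 lower by 2-fold, 903 to 1397 more positive and 674 to 1167 more negative. The median of the small nucleolar RNA list, 0.18, reversed to −0.1 with a mean of at least 1, ranged from −0.28 (reversed, without untreated replicate 2) to 0.58 with 1 library left out, and the cause was not tested. Same-numbered libraries did not deviate together (correlations −0.05, −0.01 and 0.03), and a replicate block gave 2703 higher and 2509 lower genes and changed no single gene call. Mir3060 also lost its call with the length trend removed (1.6). Depth is unknown, and low values move in steps of 1.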
